A study of Homo sapiens with 9 samples.

Results

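Antisense transcripts, long intergenic transcripts with a LINC name and transcripts that host microRNAs were followed in PANC-1 cells, a human pancreatic tumour line, under combined nutrient and oxygen deprivation. The RNAs were chosen by their symbol and by their measured level in these same libraries: a symbol had to start with LINC and a number, end in -AS and a digit, or be built as MIR...HG, and had to reach 1 TPM (an abundance scaled to transcript length and to the library total) in at least 3 of 9 libraries. The deposited values covered 27800 symbols, of which 2818 had such a name, and 589 of these passed the level filter, made up of 384 antisense RNAs of 1126, 187 LINC RNAs of 1639 and 18 microRNA host RNAs of 53. Just inside the threshold were HCFC1-AS1, FOXP1-AS1 and LINC01759, whose values ranked 3 among the 9 libraries were 1.009, 1.016 and 1.018 TPM, and just outside were UBAC2-AS1, TNKS2-AS1 and BASP1-AS1 with 0.9959, 0.9926 and 0.9878 TPM. RNAs under the filter were not tested, and an RNA that passed through high values at 1 day alone had to differ from the other days. Of the 589, 136 reached 1 TPM at day 2 and at day 14 but in no day 0 library, and 3 reached it at day 0 alone, so counts of higher and lower RNAs are partly set by the filter.

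The groups were day 0, day 2 and day 14, with 3 libraries each. All 9 libraries came from PANC-1 without further treatment. Their column headers in the deposited values are marked WT, and the labels named no engineered allele. The culture protocol, worded alike for all 9, was DMEM with low glucose, little fetal calf serum and a reduced amino acid supply as the deprivation condition, so how the day 0 cells had been kept was not stated. There were no undeprived samples at day 2 or day 14, and deprivation cannot be told apart from time in culture or from a batch by day. No label tells if a day's 3 libraries came from separate cultures, so the p-values measure the spread between these libraries, which may be technical. A tumour line grown alone has no stroma, blood vessels or immune cells.

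Antisense RNAs are read from the strand opposite a named gene and often start near its promoter or overlap its exons, so reads from both can be mixed where the strand is not kept. LINC RNAs lie between protein-coding genes, are mostly spliced and present at low copy number, and for many of them no function is known. Host RNAs carry a microRNA precursor in an exon or intron, and the microRNA, which represses messenger RNAs through its seed, is cut from the same primary transcript. In pancreatic tumours, where oxygen and nutrients are scarce, the best known of these is MIR210HG, whose microRNA miR-210 is a standard target of the hypoxia-inducible factor HIF-1.

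The mature microRNAs encoded within the hosts that the results turn on are shown to tell which microRNA each host carries. The levels of the microRNAs themselves are not analysed here. Sequences are from RefSeq (GRCh38.p14), 5′ to 3′, and capitals mark the seed, bases 2 to 8 of the mature strand. All those printed lie on the same strand as their host.
hsa-miR-210-3p (MIR210HG, chr11:568112-568133, minus strand): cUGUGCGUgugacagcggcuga
hsa-miR-22-3p (MIR22HG, chr17:1713914-1713935, minus strand): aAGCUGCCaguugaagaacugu
hsa-miR-181a-5p (MIR181A1HG, chr1:198859108-198859130, minus strand): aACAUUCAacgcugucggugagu
hsa-miR-181b-5p (MIR181A1HG, chr1:198858925-198858947, minus strand): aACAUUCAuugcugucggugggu
hsa-miR-193b-3p (MIR193BHG, chr16:14304017-14304038, plus strand): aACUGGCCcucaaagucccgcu
hsa-miR-365a-3p (MIR193BHG, chr16:14309340-14309361, plus strand): uAAUGCCCcuaaaaauccuuau
hsa-miR-205-5p (MIR205HG, chr1:209432166-209432187, plus strand): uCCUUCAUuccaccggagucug
hsa-miR-503-5p (MIR503HG, chrX:134546371-134546393, minus strand): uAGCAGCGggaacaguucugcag
hsa-miR-34a-5p (MIR34AHG, chr1:9151735-9151756, minus strand): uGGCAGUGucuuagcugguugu
hsa-miR-125b-5p (MIR100HG, chr11:122099809-122099830, minus strand): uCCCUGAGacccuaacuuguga
hsa-let-7a-5p (MIR100HG, chr11:122146568-122146589, minus strand): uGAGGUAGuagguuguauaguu
hsa-let-7b-5p (MIRLET7BHG, chr22:46113691-46113712, plus strand): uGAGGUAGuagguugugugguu
The let-7 RNAs of MIR100HG and MIRLET7BHG share the seed GAGGUAG, and miR-181a and miR-181b of MIR181A1HG share the seed ACAUUCA. The other microRNAs printed each have a seed of their own. For MIRLET7DHG, which RefSeq now lists as LINC02603, the let-7d precursor lies on the opposite strand of the annotated transcript, so let-7d is not printed as its product. MIRLET7DHG is counted among the 18 host RNAs, which are defined by their symbol alone.

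Promoter windows, 250 bases before to 50 after an annotated start (RefSeq, GRCh38.p14), are shown for 4 of the 8 RNAs with the largest rises at day 2, selected with their matches known, with the letters ACGTG or GCGTG, the core of the hypoxia response element, in capitals where either strand holds them.
MIR210HG (chr11:568408-568707, minus strand): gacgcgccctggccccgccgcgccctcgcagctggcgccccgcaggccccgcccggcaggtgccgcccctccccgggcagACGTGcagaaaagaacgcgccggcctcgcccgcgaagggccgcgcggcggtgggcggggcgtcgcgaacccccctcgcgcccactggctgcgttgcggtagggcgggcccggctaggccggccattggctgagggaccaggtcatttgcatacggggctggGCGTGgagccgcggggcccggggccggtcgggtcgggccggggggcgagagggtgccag
UPK1A-AS1 (chr19:35673242-35673541, minus strand): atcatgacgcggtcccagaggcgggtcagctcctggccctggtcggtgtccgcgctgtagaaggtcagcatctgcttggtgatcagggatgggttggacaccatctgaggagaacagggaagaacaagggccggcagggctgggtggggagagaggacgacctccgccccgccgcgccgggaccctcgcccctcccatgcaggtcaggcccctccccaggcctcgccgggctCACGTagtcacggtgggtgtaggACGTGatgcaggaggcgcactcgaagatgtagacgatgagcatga
ZNF790-AS1 (chr19:36797313-36797612, plus strand): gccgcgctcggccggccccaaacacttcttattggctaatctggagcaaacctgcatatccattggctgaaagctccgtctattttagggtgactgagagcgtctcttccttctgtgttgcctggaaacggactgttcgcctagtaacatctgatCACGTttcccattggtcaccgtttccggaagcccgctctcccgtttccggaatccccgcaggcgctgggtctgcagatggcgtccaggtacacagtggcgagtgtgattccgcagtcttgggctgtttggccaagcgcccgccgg
LINC01972 (chr3:194768660-194768959, minus strand): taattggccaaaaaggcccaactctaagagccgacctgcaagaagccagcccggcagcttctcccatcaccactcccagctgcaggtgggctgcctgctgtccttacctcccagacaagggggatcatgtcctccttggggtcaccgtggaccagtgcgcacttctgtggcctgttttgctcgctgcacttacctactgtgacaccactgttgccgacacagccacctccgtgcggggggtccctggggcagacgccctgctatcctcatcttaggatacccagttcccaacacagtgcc
The window of MIR210HG held 1 ACGTG and 1 GCGTG, that of UPK1A-AS1 held 2 ACGTG, that of ZNF790-AS1 held 1 ACGTG, and that of LINC01972 held neither. Of the other 4 RNAs with the largest rises, TSPEAR-AS2 had 1 GCGTG in its window, TSPEAR-AS1 and NRSN2-AS1 had neither motif, and LINC02432 had no window in the table. Such matches are common: ACGTG was in 21.6% and GCGTG in 36.3% of the 27305 promoters of the table (1 window a symbol, both strands). Of the 436 RNAs of the set with a window, 29.4% held ACGTG and 48.2% held GCGTG. Among the 149 with a window that rose at day 2, the shares were 30.2% and 47.7%. CACGTG, an E-box that contains ACGTG, was in 6.71% of these 149, in 9.17% of the 436 and in 7.43% of all promoters. TGATGNAA, the letters of the ATF4 response element, was in 1.34% of the 149, in 1.83% of the 436 and in 3.67% of all promoters. A match describes letters and not a bound site.

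Each library summed to the same total by construction of TPM, so sequencing depth was unknown and no counting interval could be given. The check genes of hypoxia, among them VEGFA and CA9, were called higher in 8 of 8 cases at day 2 and 7 of 8 at day 14, those of nutrient stress, among them ATF4 and ASNS, in 6 of 6 at both days, and those of proliferation were lower in 5 of 6 at day 2 and 4 of 6 at day 14. All 7 markers of the line, which were the 6 epithelial genes KRT7, KRT8, KRT18, KRT19, EPCAM and CDH1 and the mesenchymal gene VIM, were measured in these cells. KRT8, KRT18, KRT19 and EPCAM were lower at both days and VIM at day 14. The 6 acinar and islet markers never reached 1 TPM, 4 of 6 fibroblast markers and 5 of 6 blood cell markers never did, and CD68 was the blood cell marker that did. The replicate labelled 2 at day 0 stood apart. It listed 52 of the 589 long RNAs at 0, against 7 to 15 in the other libraries, and had 11363 genes at 1 TPM or more, against 13016 to 13868, so counts are given with and without it. The microRNA symbol MIR6723 took 16.2% to 32.6% of all TPM in a library, and all short RNA symbols together took 24.2% to 43.4%.

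More of the long RNAs were higher than lower after deprivation, at both days. At day 2, 189 of 589 (32.1%) were called higher and 12 (2.04%) lower than at day 0, where calls over all 14144 tested genes came to 19.2% higher and 11.5% lower. At day 14, 253 (43.0%) were higher and 8 (1.36%) lower than at day 0, against 27.5% and 6.72% of all tested genes. Of these higher RNAs, 69 of the 189 and 93 of the 253 had no day 0 library at 1 TPM and had passed the level filter through the later days. Among them were MIR210HG, UPK1A-AS1, TSPEAR-AS1, TSPEAR-AS2 and PLA2G4C-AS1, described below, for which a higher call was favoured by the filter. Calls are from limma on log2(TPM + 1), with Benjamini-Hochberg adjustment over all tested genes at 0.05. The added 1 makes the changes of scarce RNAs look smaller than they are, and in bulk samples fewer cells of a kind and less RNA per cell cannot be told apart. Of the 589, 159 were higher and 7 lower in both comparisons, 30 were higher at day 2 alone and 94 at day 14 alone, but both comparisons share the day 0 libraries and the difference between them was not tested by these counts. The 189 rises at day 2 ranged from 0.43 to 3.71 on the log2 scale with a median of 1.10, and 114 were at 1 or more. The 253 rises at day 14 ranged from 0.49 to 3.40 with a median of 1.16, and 157 were at 1 or more. In the F test over the 3 days 241 were called, against 35.4% of all tested genes. Without day 0 replicate 2, 201 were higher and 26 lower at day 2 (24.5% and 23.7% of all tested genes), and 265 were higher and 17 lower at day 14 (34.5% and 14.6% of all tested genes).

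Against day 0, the median and quartiles of the long RNAs lay above those of all genes. The quartiles at day 2 were 0.20 and 0.94, against -0.34 and 0.75 over all tested genes. The largest rises were not in the set: NDRG1 changed by 5.87 at day 2, where the highest of the long RNAs was 3.71. The median log2 change of the 589 RNAs was 0.57 at day 2 against day 0, where that of all tested genes was 0.23, and 0.70 at day 14 against day 0, where that of all tested genes was 0.44. Without day 0 replicate 2 the medians were 0.44 at day 2, against 0.02 over all genes, and 0.59 at day 14, against 0.24. Relative to all genes the medians with all libraries were 0.34 and 0.26 higher. Median-ratio scaling of the libraries moved the all-gene medians by -0.27 and -0.48, and the long RNAs then stood 0.47 and 0.41 above them. Quantile normalization moved them by -0.25 and -0.45 and left the long RNAs 0.18 and 0.16 above. Of the long RNAs called, the higher share was 94.0% at day 2 as deposited, 85.7% after median-ratio scaling and 72.7% after quantile normalization. At day 14 these shares were 96.9%, 89.1% and 77.8%. Among all tested genes called, the higher share was 62.4%, 47.1% and 47.9% at day 2, and 80.4%, 46.4% and 49.6% at day 14. The direction of the balance of the long RNAs was thus the same under the 3 scalings while its size was not.

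**Figure D1:**
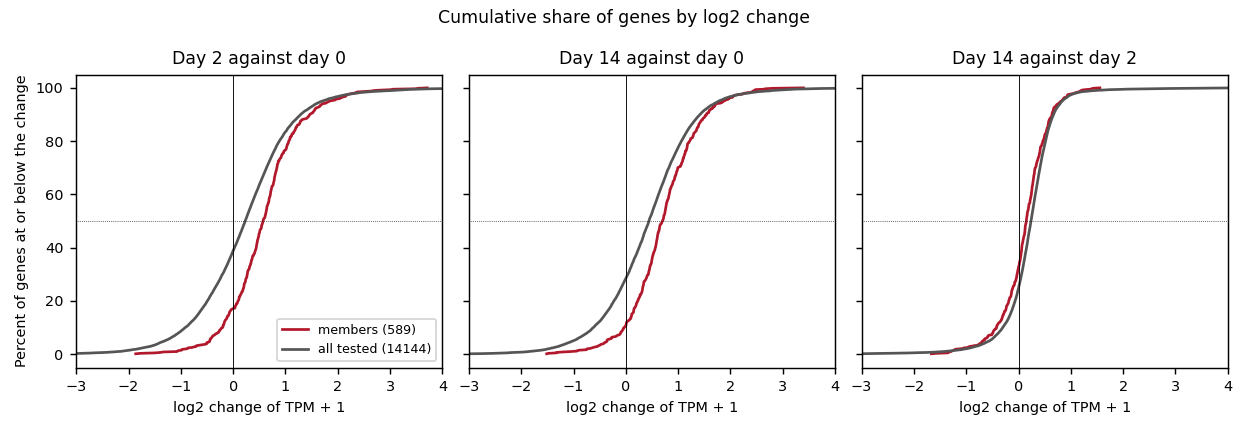
Cumulative percent of genes (y) by log2 change of TPM + 1 (x) for the 589 long RNAs (red) and all 14144 tested genes (grey) in the 3 comparisons; the dotted line marks the median. At the quartiles and the median, the red curve lies right of the grey one against day 0. The medians are 0.57 against 0.23 at day 2 and 0.70 against 0.44 at day 14. Between day 14 and day 2 it lies slightly left there, with medians of 0.15 against 0.24.

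By class, 11 of 18 microRNA host RNAs, 69 of 187 LINC RNAs (36.9%) and 109 of 384 antisense RNAs (28.4%) were higher at day 2, and 0, 4 and 8 of them were lower. At day 14, 9 host RNAs, 93 LINC RNAs (49.7%) and 151 antisense RNAs (39.3%) were higher, and 0, 3 and 5 were lower. Protein-coding genes outside the set, 12041 by GENCODE annotation, were higher in 18.6% and lower in 13.1% at day 2, and higher in 27.2% and lower in 7.66% at day 14. The 170 other long noncoding genes tested, which do not carry these names, were higher in 25.3% and lower in 3.53% at day 2, and higher in 38.2% and lower in 2.94% at day 14. No test was made of the difference between these sets.

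**Figure D2:**
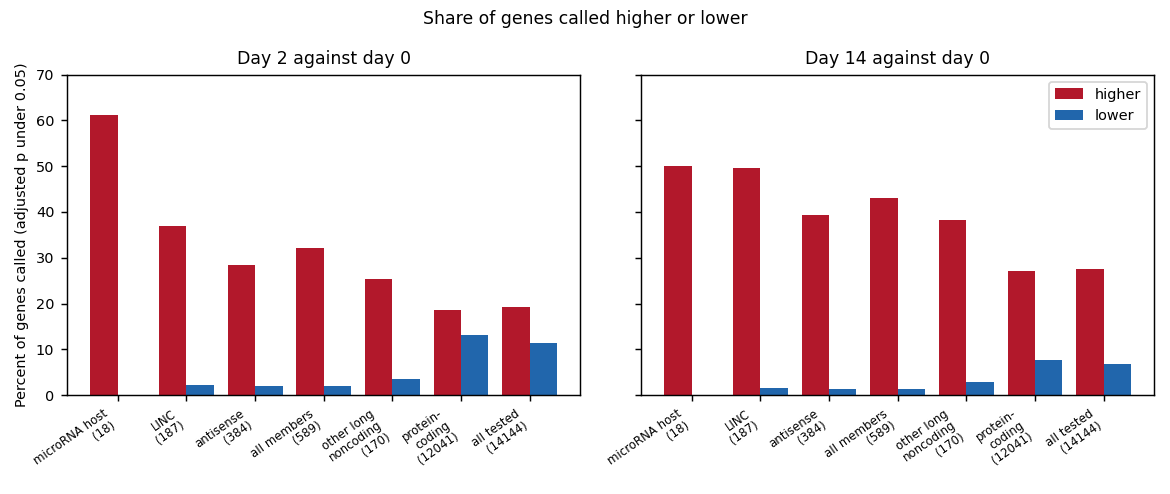
Percent of genes called higher (red) or lower (blue) by limma (y) for each class of long RNA, for all 589, for other long noncoding and protein-coding genes by GENCODE and for all tested genes (x, number of genes in brackets). Red bars of the long RNAs reach 28.4% to 61.1% at day 2, where all tested genes are at 19.2%.

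Most of these RNAs were scarce. The mean over the 9 libraries had a median of 2.17 TPM (quartiles 1.22 and 4.75), 278 of the 589 were below 2 TPM and 59 were at 10 TPM or more. In the lowest bin the share called higher at day 2 was near that of all genes of that level, 22.7% against 25.7%. From 2 to 5 TPM it was 38.2% against 23.7%, and from 5 to 10 TPM 41.8% against 20.7%. In the bin from 10 TPM it was 45.8% against 15.9%, and at day 14 it was 52.5% against 23.5%. Summed over all 589, the level was 2272, 1683 and 2296 TPM in the day 0 libraries, 3267, 3941 and 3332 TPM at day 2, and 4383, 3787 and 3903 TPM at day 14. The sums at day 2 and day 14 all lay above those at day 0 and overlapped each other. The 10 most abundant RNAs held 21.5% to 32.5% of the sum in a library. After removal of the short RNA symbols and rescaling, the sums were 3920, 2222 and 3897 TPM at day 0, 5769, 6054 and 5787 TPM at day 2, and 6257, 5918 and 6169 TPM at day 14.

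MIR210HG had the largest rise at day 2. Its levels were 0.457, 0.276 and 0.561 TPM in the day 0 libraries, 15.8, 21.2 and 16.5 TPM at day 2, and 3.54, 11.1 and 12.6 TPM at day 14. All day 2 and day 14 libraries lay far above all day 0 libraries, and 1 day 14 library was well below the other two. The log2 change against day 0 was 3.71 (SE 0.39, adjusted p = 0.000426) at day 2 and 2.67 (SE 0.39, adjusted p = 0.0018) at day 14, and between day 14 and day 2 it was -1.04 (SE 0.39, adjusted p = 0.21). Over the 9 libraries the genes with the most similar profile were PDK1, a mitochondrial kinase that inhibits pyruvate dehydrogenase, NQO1, a quinone reductase, and FGF11 (Pearson r = 0.994, 0.991 and 0.990 on log2(TPM + 1), a description of 9 libraries in 3 days). The library that was low in MIR210HG at day 14, replicate 1, was also the lowest of its day in PDK1, with 9.31, 20.4 and 25.6 TPM, and in NDRG1, a hypoxia marker, with 46.9, 243 and 109 TPM. The other hypoxia check genes went both ways in it. VEGFA, CA9, BNIP3, EGLN3 and PFKFB4 were lowest there. ADM, with 1230, 1218 and 1151 TPM, and DDIT4, with 753, 492 and 552 TPM, were highest there.

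UPK1A-AS1, antisense to the uroplakin gene UPK1A with overlapping exons, followed a like course. It stood at 0.662, 0.499 and 0.332 TPM at day 0, 16.9, 20.1 and 11.7 TPM at day 2, and 2.83, 5.91 and 9.899 TPM at day 14. Every day 2 library exceeded every day 14 library, and these exceeded day 0. The change was 3.50 (SE 0.37, adjusted p = 0.00044) at day 2 and 2.15 (SE 0.37, adjusted p = 0.00352) at day 14. UPK1A itself, a membrane protein of urothelium, had 0.245, 0.168 and 0.303 TPM at day 0, 18.6, 20.6 and 19.5 TPM at day 2, and 3.61, 7.36 and 5.92 TPM at day 14. It changed by 4.05 (SE 0.23, adjusted p = 6.74e-05) at day 2, and its change between day 14 and day 2 was -1.67 (SE 0.23, adjusted p = 0.031). Since the strand setting was not stated, reads of the pair cannot be told apart.

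TSPEAR-AS1 and TSPEAR-AS2 are separate antisense transcripts with no shared exon, each overlapping an exon of TSPEAR, a gene linked to hearing and tooth development. TSPEAR-AS1 had 0.675, 0.315 and 0.809 TPM at day 0, 13.2, 11.97 and 10.4 TPM at day 2, and 7.83, 6.598 and 8.35 TPM at day 14. TSPEAR-AS2 had 0.612, 0.101 and 0.817 TPM at day 0, 12.6, 10.7 and 10.7 TPM at day 2, and 7.43, 5.22 and 8.18 TPM at day 14. In both, no libraries of different days overlapped. The changes at day 2 were 3.01 (SE 0.19, adjusted p = 6.74e-05) and 3.06 (SE 0.24, adjusted p = 0.000158), and at day 14 2.43 (SE 0.19, adjusted p = 0.000197) and 2.41 (SE 0.24, adjusted p = 0.000437). TSPEAR itself had 1.65, 1.76 and 1.53 TPM at day 2 and 0.05403, 0 and 0.148 TPM at day 0, a change of 1.31 (SE 0.15, adjusted p = 0.000684), and both antisense RNAs had the higher TPM in all day 2 libraries.

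NRSN2-AS1 overlaps the body of NRSN2 but none of its exons. It had 4.05, 2.16 and 5.25 TPM at day 0, 27.5, 28.3 and 28.9 TPM at day 2, and 20.7, 25.7 and 23.6 TPM at day 14. Its day 2 libraries were nearly equal, and days 2 and 14 both lay above day 0. The change was 2.66 (SE 0.25, adjusted p = 0.000308) at day 2 and 2.38 (SE 0.25, adjusted p = 0.000524) at day 14. NRSN2, a neuronal vesicle membrane protein, changed by 1.23 (SE 0.30, adjusted p = 0.016) at day 2 and by 0.33 (SE 0.30, adjusted p = 0.421) at day 14. LINC02432, an intergenic RNA, peaked at day 2, with 4.28, 2.44 and 4.41 TPM at day 0, 34.4, 24.4 and 27.7 TPM at day 2, and 14.03, 8.69 and 13.3 TPM at day 14. Its day 14 libraries lay below all day 2 and above all day 0 libraries, and the change was 2.68 (SE 0.26, adjusted p = 0.000357) at day 2 and 1.47 (SE 0.26, adjusted p = 0.00428) at day 14.

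Other RNAs were as high or higher at day 14. LINC01972 had 0.518, 1.47 and 0.847 TPM at day 0, 14.3, 8.48 and 15.9 TPM at day 2, and 22.6, 18.6 and 16.4 TPM at day 14. Every library at day 14 was above every library at day 2, and the change against day 0 was 3.40 (SE 0.28, adjusted p = 0.000222) at day 14, the largest at that day, and 2.82 (SE 0.28, adjusted p = 0.000364) at day 2. Its profile was most like those of MAP1LC3B, the autophagosome protein LC3B, of CAND1.11 and of ZNF644 (Pearson r = 0.991, 0.989 and 0.987 over 9 libraries, a description). ZNF790-AS1, which overlaps an exon of the zinc finger gene ZNF790, had 4.41, 4.34 and 6.34 TPM at day 0, 26.6, 41.6 and 33.2 TPM at day 2, and 47.9, 37.8 and 37.6 TPM at day 14. Days 2 and 14 overlapped and both lay far above day 0. The change was 2.52 (SE 0.23, adjusted p = 0.000241) at day 2 and 2.81 (SE 0.23, adjusted p = 0.000208) at day 14, while ZNF790 changed by 0.77 (SE 0.18, adjusted p = 0.0118) at day 14.

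**Figure D3:**
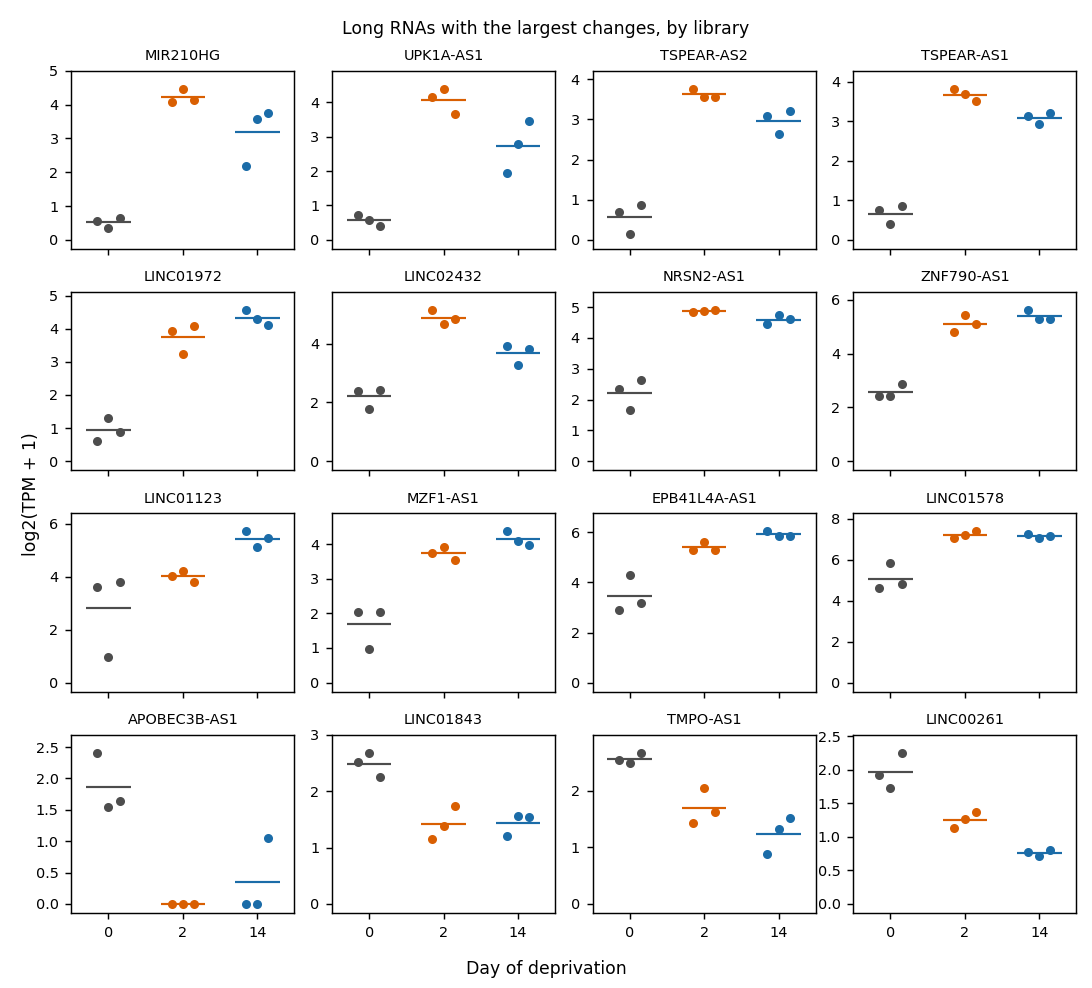
log2(TPM + 1) (y) of 16 long RNAs by day (x); points are libraries and bars the mean of 3. MIR210HG and UPK1A-AS1 peak at day 2, LINC01972 and ZNF790-AS1 stay high at day 14, LINC01123 is highest at day 14, and the bottom row shows 4 RNAs that were lower.

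LINC01123 was called at day 14 and not at day 2. Its values were 11.3, 0.961 and 13.03 TPM at day 0, 15.3, 17.4 and 13.1 TPM at day 2, and 51.4, 34.1 and 43.1 TPM at day 14. The day 14 libraries stood above all others. Day 0 replicate 2 was far below its own group: the change at day 14 was 2.63 (SE 0.65, adjusted p = 0.0158) with it and 1.72 (adjusted p = 0.000442) without it. PLA2G4C-AS1, which shares exon sequence with the phospholipase gene PLA2G4C, had 0, 0.297 and 0.2004 TPM at day 0, 2.83, 2.72 and 0.562 TPM at day 2, and 7.29, 6.68 and 3.197 TPM at day 14. It changed by 2.47 (SE 0.39, adjusted p = 0.00252) at day 14, and PLA2G4C by 2.44 (SE 0.27, adjusted p = 0.000617). For MZF1-AS1, which overlaps exons of the zinc finger gene MZF1, the values were 3.11, 0.962 and 3.12 TPM at day 0, 12.4, 14.2 and 10.6 TPM at day 2, and 19.6, 16.1 and 14.9 TPM at day 14. All libraries of day 2 and day 14 exceeded those of day 0, and the change was 2.05 (SE 0.30, adjusted p = 0.00192) at day 2 and 2.47 (SE 0.30, adjusted p = 0.000977) at day 14.

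Few long RNAs were lower, and most of those were scarce. LINC01843 had 4.74, 5.41 and 3.78 TPM at day 0, 1.23, 1.59 and 2.32 TPM at day 2, and 1.31, 1.96 and 1.92 TPM at day 14. Days 2 and 14 overlapped below day 0, and the change was -1.06 (SE 0.21, adjusted p = 0.0065) at day 2 and -1.05 (SE 0.21, adjusted p = 0.00674) at day 14. LINC00261, an RNA of endoderm that lies near FOXA2, had 2.77, 2.32 and 3.76 TPM at day 0, 1.19, 1.41 and 1.57 TPM at day 2, and 0.705, 0.635 and 0.746 TPM at day 14. Its 3 days were separate and descended in order, with changes of -0.71 (SE 0.17, adjusted p = 0.0147) at day 2 and -1.21 (SE 0.17, adjusted p = 0.00165) at day 14. TMPO-AS1 had 4.83, 4.602 and 5.36 TPM at day 0, 1.71, 3.13 and 2.07 TPM at day 2, and 0.845, 1.51 and 1.86 TPM at day 14. Day 0 was above all other libraries, and days 2 and 14 overlapped. It changed by -0.87 (SE 0.23, adjusted p = 0.0207) at day 2 and by -1.32 (SE 0.23, adjusted p = 0.00353) at day 14, and its partner TMPO, a lamina-associated protein, by -1.63 (SE 0.24, adjusted p = 0.00178) and -1.10 (SE 0.24, adjusted p = 0.00902).

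APOBEC3B-AS1 had 4.305, 1.91 and 2.12 TPM at day 0, was listed at 0 in all 3 day 2 libraries, and had 0, 0 and 1.07 TPM at day 14. It was called lower at both days (adjusted p = 0.00372 and 0.00859, limma), and no fold is given against a day listed at 0. APOBEC3B, a DNA cytidine deaminase, changed by -1.56 (SE 0.27, adjusted p = 0.00347) at day 2. PRRT3-AS1 had 1.701, 3.103 and 1.62 TPM at day 2 and 8.82, 7.9 and 6.47 TPM at day 0, a change of -1.50 (SE 0.24, adjusted p = 0.00282), while its partner PRRT3 was not called, at 0.35 (SE 0.21, adjusted p = 0.23). LINC00116 is now annotated as MTLN, which encodes mitoregulin, a small protein of the inner mitochondrial membrane, so it is not noncoding. It had 7.27, 7.43 and 7.84 TPM at day 2 and 17.6, 71.02 and 17.2 TPM at day 0, where 1 library was far above the other two. The change was -1.77 (SE 0.49, adjusted p = 0.0262) with day 0 replicate 2 and -1.11 (adjusted p = 0.0031) without it. The call of LINC00116 was lost under 4 of 22 alternatives, among them the removal of any single day 2 library. FAM83C-AS1 had 0, 0.574 and 0 TPM at day 2 and 1.31, 3.39 and 1.78 TPM at day 0, and its change of -1.39 (SE 0.41, adjusted p = 0.0321) became -1.12 (adjusted p = 0.0646) without day 0 replicate 2. Its call was lost under 6 of 21 alternatives. C8orf37-AS1 had 0.544, 0 and 0 TPM at day 14 and 3.095, 0.979 and 2.01 TPM at day 0, with a change of -1.33 (SE 0.42, adjusted p = 0.0405), and lost its call under 9 of 21 alternatives. The remaining RNAs called lower, APCDD1L-AS1, ATP6V1B1-AS1, ELOVL2-AS1 and LINC01311, averaged between 1.17 and 1.74 TPM at day 0.

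Between day 14 and day 2, 1 of 589 long RNAs was called lower and 0 higher, where 0.205% and 0.212% of all tested genes were called lower and higher. At an unadjusted p under 0.05, 102 of the 589 (17.3%) differed, against 18.1% of all tested genes. Without day 0 replicate 2, whose spread enters the common error, 64 were higher (10.9%) and 26 lower (4.41%), against 23.4% and 3.82% of all tested genes. The median change of the long RNAs was 0.15 and that of all tested genes 0.24, and under median-ratio scaling and quantile normalization the median of the long RNAs turned to -0.02 and -0.00285. The RNA called was MIR22HG, described with the hosts.

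The most abundant RNA of the set was LRRC75A-AS1, now named SNHG29, a host of small nucleolar RNAs. It had 230.5, 214 and 190.0 TPM at day 0, 281, 362 and 264 TPM at day 2, and 619, 495 and 522 TPM at day 14. Its 3 days did not overlap, and the change was 0.51 (SE 0.18, adjusted p = 0.0682) at day 2 and 1.36 (SE 0.18, adjusted p = 0.00142) at day 14, where median-ratio scaling ended the call. EPB41L4A-AS1, whose intron also carries a small nucleolar RNA, had 6.44, 18.8 and 8.11 TPM at day 0, 38.7, 47.8 and 38.6 TPM at day 2, and 64.8, 57.1 and 57.2 TPM at day 14. The days were separate in ascending order, and the change was 1.95 (SE 0.33, adjusted p = 0.0035) at day 2 and 2.46 (SE 0.33, adjusted p = 0.00141) at day 14. LINC01578, now named CHASERR and known for restraining its neighbour CHD2, had 23.7, 55.9 and 26.9 TPM at day 0, 135, 149 and 166 TPM at day 2, and 152, 132 and 141 TPM at day 14. Days 2 and 14 overlapped and exceeded day 0, with changes of 2.15 (SE 0.30, adjusted p = 0.00139) and 2.07 (SE 0.30, adjusted p = 0.00176). LINC00673, reported to promote turnover of the phosphatase PTPN11 in pancreatic cells, had 20.8, 7.32 and 24.6 TPM at day 0, 67.1, 71.1 and 83.8 TPM at day 2, and 43.7, 60.9 and 58.1 TPM at day 14, a change of 2.16 (SE 0.39, adjusted p = 0.00432) at day 2 and 1.71 (SE 0.39, adjusted p = 0.011) at day 14.

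NUTM2B-AS1 averaged 52.9 ± 10.2 TPM at day 14 and 21.3 ± 6.04 TPM at day 0 (SD, n = 3 each), a change of 1.29 (SE 0.23, adjusted p = 0.00424). LINC02043 averaged 44.2 ± 5.24 TPM at day 14 and 21.98 ± 2.75 TPM at day 0 (SD, n = 3 each), a change of 0.98 (SE 0.20, adjusted p = 0.00666). PSMA3-AS1, beside the proteasome subunit gene PSMA3, averaged 12.9 ± 1.25 TPM at day 14 and 6.14 ± 0.748 TPM at day 0 (SD, n = 3 each), a change of 0.96 (SE 0.17, adjusted p = 0.00376). Median-ratio scaling ended the calls of LINC02043 and PSMA3-AS1, and quantile normalization that of PSMA3-AS1. FGD5-AS1 and HOXB-AS3 were not called at either day. HOXB-AS3, from the HOXB cluster of developmental regulators, had 62.2, 13.6 and 51.1 TPM at day 0, 51.8, 78.5 and 46.8 TPM at day 2, and 53.2, 57.1 and 47.6 TPM at day 14, so 1 day 0 library alone was low. PCNA-AS1 depended on that library in sign. At day 0 it had 248 and 283 TPM in replicates 1 and 3 and was listed at 0 in replicate 2, and it had 95.2, 93.3 and 84.8 TPM at day 2, and 108, 106 and 115 TPM at day 14. With all libraries the change was 1.15 (SE 1.83, adjusted p = 0.656) at day 2, and without replicate 2 it was -1.53 (adjusted p = 7.52e-05). At day 14 it was 1.42 (SE 1.83, adjusted p = 0.565) with that library and -1.26 (adjusted p = 0.000164) without it. PCNA, the sliding clamp of DNA replication that it lies opposite, had 46.1, 50.03 and 41.8 TPM at day 2 and 166, 354 and 177 TPM at day 0, with the same library highest. CELSR3-AS1, now LINC02585, was also listed at 0 in that library, with 39.4 and 34.2 TPM in the other day 0 replicates. It had 107, 152 and 132 TPM at day 2, and 56.3, 18.2 and 75.3 TPM at day 14. It was not called with all libraries (adjusted p = 0.0653, limma) and changed by 1.78 (adjusted p = 0.0242) at day 2 without replicate 2.

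All 18 RNAs with a host symbol had a positive change at day 2, of which 11 were called, and without day 0 replicate 2 the same number was called and 16 of 18 changes were positive. Over all tested genes, 61.2% had a positive change at day 2 and 19.2% were called higher, or 51.1% and 24.5% without that library. Hosts such as MIR210HG, MIR181A1HG and MIR34AHG had no day 0 library at 1 TPM, so a positive sign was favoured by the level filter. In 5 of 18 cases the host had a higher fitted level at day 14 than at day 2, and 1 of the others was called lower, or 5 of them without day 0 replicate 2. Of all tested genes 75.1% had a higher fitted level at day 14 than at day 2, and 0.205% were called lower, or 3.82% without that library. MIR181A1HG, host of miR-181a and miR-181b, had 0, 0.114 and 0.129 TPM at day 0, 3.15, 3.59 and 5.53 TPM at day 2, and 1.63, 0.675 and 1.14 TPM at day 14. The 3 days were separate, with day 14 between the others, and the change was 2.21 (SE 0.23, adjusted p = 0.000402) at day 2 and 0.97 (SE 0.23, adjusted p = 0.0122) at day 14. MIR22HG, a stress-responsive host with the miR-22 precursor in its exon, had 9.48, 8.66 and 9.62 TPM at day 0, 41.2, 46.7 and 47.9 TPM at day 2, and 22.3, 24.4 and 21.3 TPM at day 14. No libraries of different days overlapped, and the change was 2.17 (SE 0.15, adjusted p = 0.000103) at day 2, 1.21 (SE 0.15, adjusted p = 0.00113) at day 14 and -0.97 (SE 0.15, adjusted p = 0.047) between day 14 and day 2. The last of these was lost under 12 of 22 alternatives, most of them leaving out a library.

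MIR193BHG, host of miR-193b and miR-365a, had 1.103, 1.82 and 0.746 TPM at day 0, 7.76, 8.06 and 7.76 TPM at day 2, and 2.21, 4.55 and 5.17 TPM at day 14. Its day 2 libraries were nearly equal and above all others, and its day 14 libraries lay between, with changes of 2.02 (SE 0.28, adjusted p = 0.00139) at day 2 and 1.14 (SE 0.28, adjusted p = 0.0153) at day 14. The day 14 call was lost under 5 of 21 alternatives, median-ratio scaling and quantile normalization among them. MIR503HG had 2.33, 3.53 and 2.44 TPM at day 0, 9.94, 9.92 and 12.1 TPM at day 2, and 2.59, 8.93 and 3.28 TPM at day 14. It was higher at day 2 by 1.64 (SE 0.36, adjusted p = 0.0101), while 1 day 14 library was close to day 2 and the others were near day 0. MIR205HG, host of miR-205 of epithelial cells, had 1.77, 1.05 and 2.196 TPM at day 0, 9.32, 5.05 and 7.02 TPM at day 2, and 2.39, 5.59 and 4.497 TPM at day 14, and changed by 1.60 (SE 0.31, adjusted p = 0.00626) at day 2 and 0.92 (SE 0.31, adjusted p = 0.0504) at day 14, where it was not called. MIR34AHG, host of the p53 target miR-34a, had 0.628, 0.215 and 0.879 TPM at day 0, 2.27, 2.74 and 2.36 TPM at day 2, and 1.24, 1.24 and 1.37 TPM at day 14. The days did not overlap, and day 14 lay between the others. It changed by 1.16 (SE 0.18, adjusted p = 0.0025) at day 2. At day 14 its change was 0.56 (SE 0.18, adjusted p = 0.043), which was lost under 16 of 21 alternatives and had the opposite sign under quantile normalization. LINC01759, now LNCTAM34A, overlaps MIR34AHG on the opposite strand and was not called at day 2, at 0.68 (SE 0.23, adjusted p = 0.0529).

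MIR100HG, host of miR-100, let-7a-2 and miR-125b-1, had 6.54, 4.63 and 6.79 TPM at day 0, 12.6, 10.7 and 16.8 TPM at day 2, and 17.7, 11.02 and 17.5 TPM at day 14. Days 2 and 14 overlapped and both lay above day 0, with changes of 1.03 (SE 0.26, adjusted p = 0.0174) at day 2 and 1.22 (SE 0.26, adjusted p = 0.00839) at day 14. The day 2 call was lost under 3 of 22 alternatives, quantile normalization among them, and the day 14 call under median-ratio scaling and quantile normalization. MIR570HG changed by 1.26 (SE 0.20, adjusted p = 0.00274) at day 2 and 1.13 (SE 0.20, adjusted p = 0.00425) at day 14. MIR4713HG, which overlaps exons of the aromatase gene CYP19A1 on the other strand, changed by 1.43 (SE 0.28, adjusted p = 0.00629) at day 2 and 1.24 (SE 0.28, adjusted p = 0.0109) at day 14. Quantile normalization ended the day 14 calls of MIR181A1HG, MIR570HG and MIR4713HG and the day 2 call of MIR503HG. MIRLET7BHG rose less, with 1.43, 1.62 and 1.66 TPM at day 0, 2.46, 4.24 and 3.14 TPM at day 2, and 2.96, 2.57 and 3.26 TPM at day 14. Its change was 0.72 (SE 0.19, adjusted p = 0.0212) at day 2 and 0.61 (SE 0.19, adjusted p = 0.0359) at day 14, and the day 2 call was lost under 7 of 21 alternatives, both scalings and the replicate block among them. The day 14 call was lost under 12 of 21, with the opposite sign under quantile normalization. The other hosts, MIR181A2HG, MIR2117HG, MIR31HG, MIR4458HG, MIR548XHG, MIR600HG and MIRLET7DHG, were not called against day 0, with adjusted p-values from limma of 0.0915 to 0.72 at day 2. MIR31HG had 7.23, 5.61 and 6.797 TPM at day 2 and 8.67, 3.57 and 5.05 TPM at day 0, and its days overlapped.

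**Figure D4:**
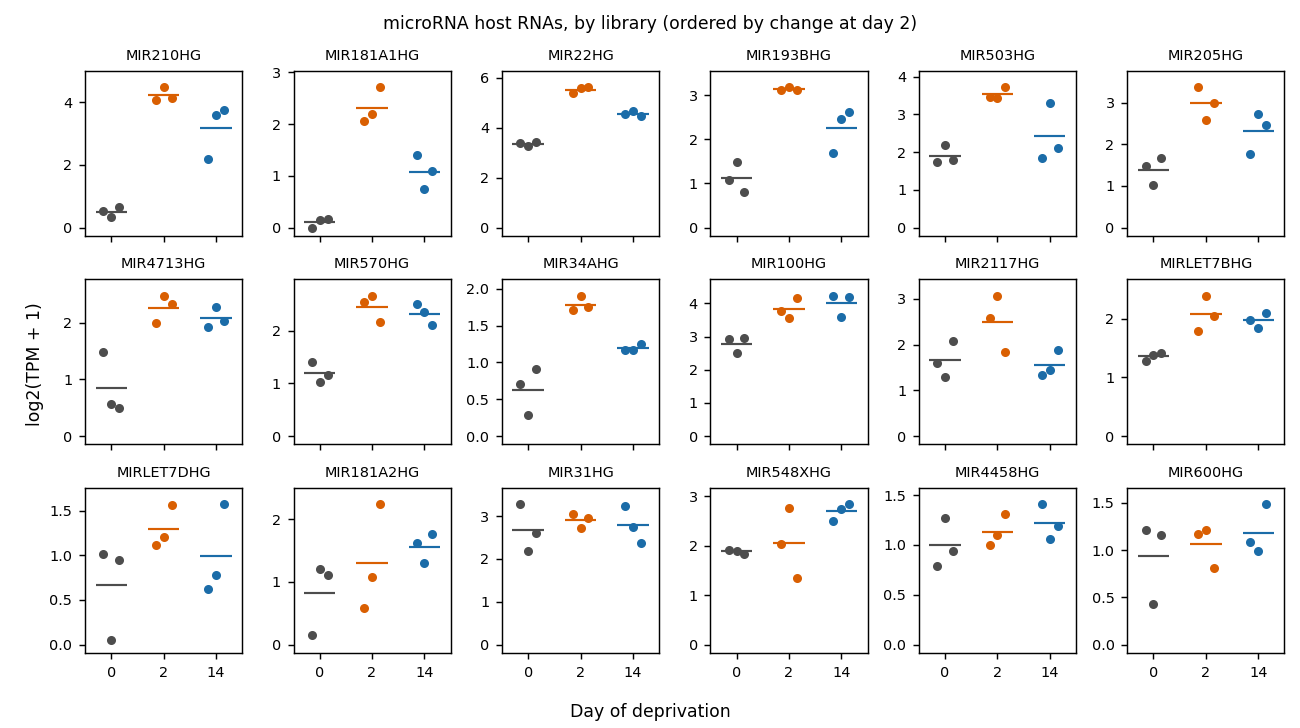
log2(TPM + 1) (y) of the 18 microRNA host RNAs by day (x), ordered by their change at day 2; points are libraries and bars the mean of 3. MIR210HG, MIR181A1HG, MIR22HG and MIR193BHG at the top left are highest at day 2 and lower at day 14, and none of the 6 hosts in the bottom row was called.

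Long RNAs reported to respond to low oxygen were listed for comparison from the literature, with earlier results of these data known. Of 17 on that list 11 were tested, 8 were higher and 0 lower at day 2, and 7 were higher at day 14. Without day 0 replicate 2, 7 and 6 were higher. This list and those below are not separate from the 589. MIR210HG, MIR31HG, MIR193BHG, PSMA3-AS1 and MIRLET7DHG belong to both. For this list and those below, the shares of all tested genes were 19.2% higher and 11.5% lower at day 2, and 27.5% and 6.72% at day 14. Without that library 24.5% were higher at day 2 and 34.5% at day 14. NEAT1, the scaffold of nuclear paraspeckles, had 53.4, 17.9 and 46.1 TPM at day 0, 360.3, 369 and 333 TPM at day 2, and 486, 353 and 263 TPM at day 14, a change of 3.28 (SE 0.39, adjusted p = 0.000758) at day 2 and 3.29 (SE 0.39, adjusted p = 0.000854) at day 14. H19, an imprinted host of miR-675, had 73.3, 45.9 and 81.5 TPM at day 0, 264, 242 and 263 TPM at day 2, and 41.3, 122 and 107 TPM at day 14, and changed by 1.96 (SE 0.40, adjusted p = 0.00706) at day 2. The antisense RNAs of HIF1A itself did not pass the level filter: HIF1A-AS2 had 0.758, 0.436 and 0.629 TPM at day 2, and at day 0 it was listed at 0 in 2 libraries and had 28.3 TPM in replicate 2. Of 23 widely expressed long RNAs tested that were listed for comparison, nearly all outside the naming rule, 12 were higher and 0 lower at day 2, and 10 were higher and 2 lower at day 14. PCAT6 changed by 3.02 (SE 0.32, adjusted p = 0.000456) at day 2. Those lower at day 14 were MEG3, an imprinted RNA, with -1.18 (SE 0.24, adjusted p = 0.00651), and RPPH1, the RNA of ribonuclease P, with -1.51 (SE 0.47, adjusted p = 0.0382). RPPH1 was listed at 0 in 2 of 3 day 14 libraries, and without day 0 replicate 2 its change was -1.19 (adjusted p = 0.083). Of 10 tested RNAs on a further list of microRNA hosts, 4 were higher and 1 lower at day 2, and 3 were higher and 2 lower at day 14. MIR193BHG and MIRLET7DHG, which are among the 18 hosts above, were also listed, so these counts are not of separate hosts. The 3 of 10 higher at day 14 are near the share of all tested genes.

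For 331 antisense RNAs the gene named in the symbol was also tested. Over the 331 pairs the named gene was higher in 86 and lower in 33 at day 2, and higher in 106 and lower in 20 at day 14. At day 2, 94 of these antisense RNAs were higher: the named gene was higher too for 46, not called for 38 and lower for 10. In 3 pairs both were lower, and in 1 the antisense RNA was lower and the named gene higher. At day 14, 131 were higher, with the named gene higher for 59, not called for 67 and lower for 5. Without day 0 replicate 2, both were higher in 54 pairs at day 2 and in 70 at day 14. Across pairs the changes of antisense RNA and named gene had r = 0.29 at day 2 and 0.27 at day 14, a description across genes that share the same libraries. By GENCODE coordinates 211 of the 331 pairs overlapped in exons, 43 only in gene bodies, 48 not at all, and 29 were not matched. Of the pairs with both higher, 37 of 46 at day 2 and 42 of 59 at day 14 overlapped in exons. Since the strand setting was not stated, reads of pairs that overlap in exons cannot be told apart. The antisense RNA had the higher mean TPM of the pair in 44 pairs at day 0, 46 at day 2 and 59 at day 14.

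**Figure D5:**
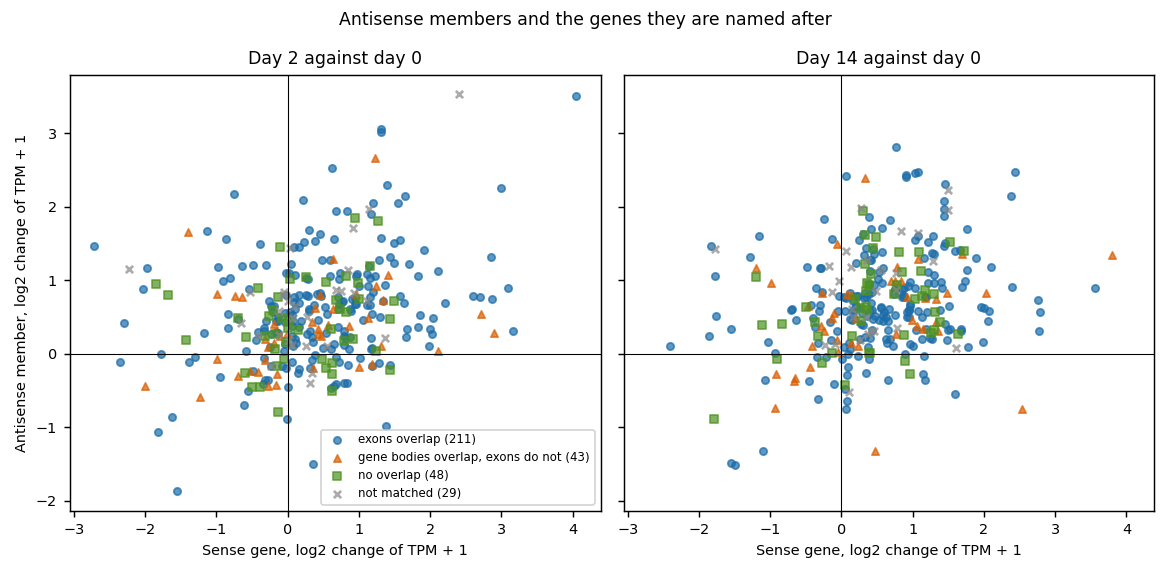
log2 change of TPM + 1 of the antisense RNA (y) and of the gene it is named after (x) for 331 pairs at day 2 and day 14 against day 0; marks give the overlap of the pair. Most points lie above 0 on the y axis, and the pairs in the upper left quadrant, where the antisense RNA was higher and the named gene lower, include PSMG3 and NDUFV2 at day 2.

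Among the 10 pairs with opposite calls at day 2 were those of PSMG3 and NDUFV2. PSMG3-AS1 had 2.96, 3.19 and 2.02 TPM at day 2 and 0.714, 0.6498 and 0.558 TPM at day 0, and PSMG3, a proteasome assembly chaperone, had 21.9, 28.5 and 18.97 TPM at day 2 and 68.7, 172 and 67.1 TPM at day 0. Changes were 1.17 (SE 0.22, adjusted p = 0.00495) for the antisense RNA and -1.98 (SE 0.37, adjusted p = 0.00499) for PSMG3. NDUFV2-AS1 had 2.74, 6.42 and 5.52 TPM at day 2 and 0.982, 1.15 and 0.355 TPM at day 0, and NDUFV2, a subunit of respiratory complex I, had 47.4, 57.96 and 54.4 TPM at day 2 and 108, 227 and 115 TPM at day 0. Here the changes were 1.66 (SE 0.32, adjusted p = 0.00562) for the antisense RNA and -1.39 (SE 0.27, adjusted p = 0.00637) for NDUFV2. In both pairs the libraries of the 2 days did not overlap for either gene, and the antisense RNA was the scarcer of the pair at day 0.

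TMEM9B-AS1 had 18.2, 26.8 and 18.1 TPM at day 2 and 6.503, 0.703 and 7.76 TPM at day 0, with a change of 2.17 (SE 0.57, adjusted p = 0.0209), or 1.42 (adjusted p = 0.00341) without day 0 replicate 2, where TMEM9B, a lysosomal membrane protein, changed by -0.76 (SE 0.16, adjusted p = 0.00965). STARD7-AS1 changed by 1.56 (SE 0.25, adjusted p = 0.00246) and STARD7, a lipid transfer protein, by -0.87 (SE 0.20, adjusted p = 0.0135). Such pairs also included those of CCDC18, EIF3J, RUSC1, SSSCA1 and TAF1A. In the reverse pair VPS9D1-AS1 had 5.88, 8.21 and 6.64 TPM at day 2 and 16.4, 9.07 and 20.4 TPM at day 0, with a change of -0.98 (SE 0.30, adjusted p = 0.0349), and VPS9D1 changed by 1.38 (SE 0.21, adjusted p = 0.00223). The call of VPS9D1-AS1 was lost under 11 of 22 alternatives. Without day 0 replicate 2, 9 of these 11 pairs kept both calls, and that of TAF1A was among those that did not. At day 14, opposite calls were made for CCDC18, MRPL23, NDUFV2, PSMG3 and SSSCA1, and all 5 were kept without that library. The number of opposite pairs depended on that library. Without it, the antisense RNA was higher and the named gene lower in 14 of 331 pairs at day 2 and in 15 at day 14. The reverse was called in 2 pairs at day 2 and in 2 at day 14.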

How the data were processed

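RNA from PANC-1 cells was measured by RNA sequencing in 9 libraries, 3 each at day 0, day 2 and day 14. The deposited values are TPM, which the authors computed per gene symbol. The submitters' processing notes name Salmon and, as genome build, hg19. The version of Salmon, the transcript annotation and the strand setting are not given in the sources used here. A TPM value keeps no depth, and a change in a few abundant symbols shifts all others in a library.

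Levels were analysed as log2(TPM + 1) for the 14144 symbols that reached 1 TPM in 3 or more of 9 columns. All 9 libraries entered 1 limma fit (limma 3.58.1, R 4.3.3) with day as the factor and a trend in the variance. Two-sided p-values were adjusted by Benjamini-Hochberg over all tested symbols within a comparison, at 0.05. The steps were checked on simulated data. Tables and plots used Python 3.11.15, pandas 2.3.3 and matplotlib 3.10.9. The long RNAs and the comparison lists were chosen with earlier results of these data known.

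The RNAs named were, in each comparison, the 8 that rose most and the 8 that fell most, taken from called RNAs whose days did not overlap and whose higher day averaged 2 TPM or more. Also named were all microRNA hosts, the 10 with the highest mean TPM, those on the lists, and 3 on each side of the level threshold. RNAs in pairs called in opposite directions, and the 4 other RNAs called lower, were added after their values were seen. Gene symbols were matched to RefSeq (GRCh38.p14) and GENCODE 29 for names, biotypes and overlaps only, and 588 of 589 matched RefSeq, of which 572 are annotated as long noncoding and 7 as protein-coding. Alternatives were other pseudocounts, filters, scalings and variance settings, the replicate number as a block, a fit of the compared days alone, and the removal of single libraries. Array weights, rescaling without the 2390 short RNA symbols and a mean of at least 5 TPM were added after seeing the data. Not every result is reported here: 1 pair was left out of the text. Pairs called in opposite directions only without day 0 replicate 2 were counted but not named.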

Additional observations from a re-analysis of the deposited data

How the results depend on the processing

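With all libraries and settings as reported, 189 long RNAs were higher and 12 lower at day 2, 253 higher and 8 lower at day 14, 0 higher and 1 lower at day 14 against day 2, and 241 changed over the 3 days. Median-ratio scaling gave 28 lower at day 2, 156 higher and 19 lower at day 14, and 7 lower at day 14 against day 2. Quantile normalization gave 112 higher and 42 lower at day 2, 105 higher and 30 lower at day 14, 2 higher and 13 lower at day 14 against day 2, and 151 over the 3 days. Over all 14144 tested genes, median-ratio scaling called 2818 lower at day 2, and 2193 higher and 2533 lower at day 14. Quantile normalization called 2591 of them higher and 2815 lower at day 2, and 2416 and 2454 at day 14. At day 14 against day 2, 94 were lower under median-ratio scaling, and 120 were higher and 221 lower under quantile normalization. With only the 2 days compared in a fit, 6 were lower at day 2, and 40 were higher and 17 lower at day 14 against day 2. The 1 RNA lower at day 14 against day 2 became 2 with robust moderation and 0 with pseudocounts of 0.1 and 0.5. Keeping symbols that averaged 1 TPM or more left 4 lower at day 14. The cause of these differences was not tested. Of the alternatives, counts or shares over all tested genes are given only for the scalings and for leaving out day 0 replicate 2. For the rest, the counts of long RNAs cannot be set against those of all genes.

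Of the alternatives chosen after seeing the data, array weights gave 51 lower at day 2, 27 lower at day 14, 103 higher and 37 lower at day 14 against day 2, and 400 over the 3 days. Removing short RNA symbols gave 0 lower at day 14 against day 2. Among RNAs with a mean of at least 5 TPM, a smaller set by construction, 60 were higher and 2 lower at day 2, 72 higher and 0 lower at day 14, and 70 changed over the 3 days.

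Leaving out each library in turn gave 122 to 201 higher and 5 to 26 lower at day 2, 181 to 265 higher and 7 to 17 lower at day 14, 0 to 64 higher and 0 to 26 lower at day 14 against day 2, and 192 to 301 over the 3 days. Each highest count came from leaving out day 0 replicate 2. Of all tested genes, 24.5% were then higher and 23.7% lower at day 2, and 34.5% and 14.6% at day 14. At day 14 against day 2 the shares were 23.4% and 3.82%, against 10.9% and 4.41% of the long RNAs. The replicate block gave 152 higher and 10 lower at day 2, 210 higher and 7 lower at day 14, 0 and 0 at day 14 against day 2, and 194 over the 3 days. Deviations of same-numbered libraries had correlations of -0.0795 to 0.0154, and 0 of 9 libraries correlated best with their own number. No shared deviation by number was thus seen. Whether same-numbered libraries were paired by culture or batch cannot be told from this.

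For the RNAs named, 3061 recomputed values kept the call or its absence, 114 lost the call and 104 gained it. The 3061 include values that changed sign with no call in either fit. A further 6 had the opposite sign with a call in either fit. Those 6 were MIR34AHG and MIRLET7BHG at day 14 under quantile normalization (-0.0068, adjusted p = 0.97, and -0.0245, adjusted p = 0.951, limma) and PCNA-AS1, which was -1.53 at day 2 and -1.26 at day 14 without day 0 replicate 2, and -1.52 and -1.22 with array weights. Over the removal of single libraries PCNA-AS1 ran from -1.53 to 2.54 at day 2 and from -1.26 to 2.81 at day 14. Without depth, low TPM values have no known counting error, and 278 of the 589 RNAs averaged below 2 TPM.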

Other observations

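Some RNAs with antisense or LINC names are no longer annotated as noncoding. RefSeq lists 7 of the 589 as protein-coding: FAM83H-AS1 as IQANK1, LINC00116 as MTLN, LINC00483 as ANKRD40CL, LINC00634 as SMIM45, LINC02581 as RNF227, NCBP2-AS2 as NCBP2AS2 and TNRC6C-AS1 as TMC6. A further 47 antisense RNAs now carry a name ending in -DT, for a divergent transcript that starts near a gene's promoter and runs away from it.

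Groups of antisense RNAs by the gene they are named after were chosen after their values were seen, and are to be read beside the shares of all tested genes, 19.2% higher and 11.5% lower at day 2 and 27.5% and 6.72% at day 14. None of 7 antisense RNAs of the HOX clusters, which hold regulators of body axis, was called at day 2 or day 14 by limma, and without day 0 replicate 2 there were 2 called higher at day 2 and 3 at day 14. Their log2 changes ran from 0.03 to 0.91 at day 2. Of 16 named after ZNF genes, which encode zinc finger proteins, 8 were higher and 0 lower at day 2, and 6 were higher and 0 lower at day 14, with the same counts without that library.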
